A study of Arabidopsis thaliana with 12 samples.

Results

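The set described here is 5 Arabidopsis genes, AT4G33720, AT5G55180, AT1G23390, BIM1 (AT5G08130) and AT5G58570. They were proposed from these same arrays because their transcript levels appeared to follow which mutant the seedlings carried more than whether the seedlings had received gibberellin (GA). Each is named alone by 1 probe set, so the set is 5 probe sets of 22810 on the array, and 5 genes of the 13355 that a probe set names alone. All 5 passed the filter on low signal that left 15922 probe sets for testing. Because the gid1 against ga-1 values, and the absence of a GA3 effect, chose these genes, those values are given for them as a description, with no p-value, and a count of members past limma's threshold is given only beside the share of all probe sets past it.

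The study used light-grown seedlings, 7 days old, on growth medium. There were 4 groups of 3 arrays, and the design text calls the 3 arrays of a group independent biological replicates. They were the gid1a-1 gid1b-1 gid1c-2 triple mutant, called gid1 here, given 100 µM GA3 for 1 h; the same triple mutant mock treated for 1 h; the ga-1 mutant (SALK_109115) given 100 µM GA3 for 1 h; and the ga-1 mutant mock treated for 1 h. The triple mutant carries mutations in all of the genes for the soluble GA receptors, and ga-1 in a gene for GA synthesis. No wild type is among the groups, so a difference between gid1 and ga-1 does not say which of them departs from wild type. The mutants also differ in every mutated locus and in seed stock, which cannot be told apart here.

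Gibberellins are growth hormones of plants. A GID1 receptor that has bound GA brings DELLA repressors of growth to the SLY1 F-box protein, and the DELLA proteins are then degraded, so seedlings without the hormone and seedlings without the receptors both keep DELLA proteins. In ga-1 added GA3 can start this signal, while in the receptor mutant it should not. AT4G33720 belongs to the CAP family of secreted, cysteine-rich proteins, whose best-known plant member is the defence protein PR1. AT5G55180 belongs to glycoside hydrolase family 17, which holds enzymes that cut the cell wall polymer callose. AT1G23390 encodes a kelch-repeat F-box protein, known as KFBCHS, that targets chalcone synthase, the first enzyme of the flavonoid pathway, for degradation. BIM1 is a basic helix-loop-helix transcription factor that binds the brassinosteroid regulator BES1 and acts with it on brassinosteroid target genes. No role is given here for AT5G58570.

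Array medians were 169.70 to 188.80 signal units, and any pair of arrays had a Pearson correlation of log2 signal between 0.943 and 0.980. Replicate 2 of ga-1 with GA3 correlated least with its own group (mean r = 0.956). The receptor genes checked the mutant labels: GID1A had 60.1 ± 4.30 signal units in gid1 with GA3 against 213 ± 20.97 in ga-1 with GA3, and 60.7 ± 15.9 in gid1 mock against 679 ± 35.9 in ga-1 mock (SD, n = 3 each). GID1B had 94.5 ± 16.9 in gid1 with GA3 against 79.97 ± 7.20 in ga-1 with GA3, and 62.9 ± 13.8 in gid1 mock against 514 ± 48.9 in ga-1 mock, so it was low in gid1 relative to ga-1 only in mock seedlings. GID1C had 147 ± 34.96 in gid1 with GA3 against 94.8 ± 18.5 in ga-1 with GA3, and 125 ± 39.8 in gid1 mock against 100.9 ± 22.5 in ga-1 mock (SD, n = 3 each), so its signal did not mark gid1 as lacking it; GA1 was not analysed here. Green tissue was present in every array, with LHCB4.1, a light-harvesting protein gene, at 19154 to 23860 and RCA, the Rubisco activase gene, at 20341 to 28560; the root gene PYK10 lay at 9196 to 14060. Seed markers set some arrays apart, which was known from earlier results of these data when the marker list was written. The adjusted p-values given for them below are therefore no independent support. Over the 7 of 19 listed seed and early-germination markers measured, the mean log2 signal was 6.66 to 7.20 in gid1 with GA3, 4.36 to 5.34 in gid1 mock, 4.90 to 5.41 in ga-1 with GA3 and 4.70 to 6.70 in ga-1 mock. Their summed signal was 1843 to 4273 in gid1 with GA3, 255 to 592 in gid1 mock, 498 to 675 in ga-1 with GA3 and 425 to 2698 in ga-1 mock, and no marker was at 0 on any array. Of these markers, AT3G02480 (limma log2 difference 2.95, adjusted p = 0.012) and the glyoxylate-cycle gene ICL (4.23, adjusted p = 0.045) were higher in gid1 than in ga-1 with GA3, with no other tested seed marker called. In mock seedlings the limma differences of both genes ran the other way without being called. AT3G02480 had -1.82 (adjusted p = 0.99) and ICL -1.26 (adjusted p = 0.99). PAP85 had the same signs (-1.23 in mock, 1.61 with GA3), but AT4G36700 did not (0.06 in mock, -0.17 with GA3). The median of the 4 tested seed markers was -1.24 in mock and 2.28 with GA3. The part of these seed markers in the differences of the 5 genes was not tested, in either treatment.

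In all, 4 of the 5 genes had lower signals in gid1 than in ga-1 and 1, AT5G58570, had a higher signal, with the same direction in both treatments. With GA3 the 3 gid1 arrays and the 3 ga-1 arrays did not overlap for any of the 5, a separation found in 13.7% of all probe sets tested. In mock seedlings they did not overlap for 3 of the 5, against 11.0% of all probe sets, and overlapped for AT1G23390 and BIM1. Over both treatments together, the 6 gid1 and 6 ga-1 arrays did not overlap for AT4G33720, AT5G55180 and AT5G58570, as in 0.484% of all probe sets. The way the genes were chosen favoured such counts, so they are read no further.

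**Figure D1:**
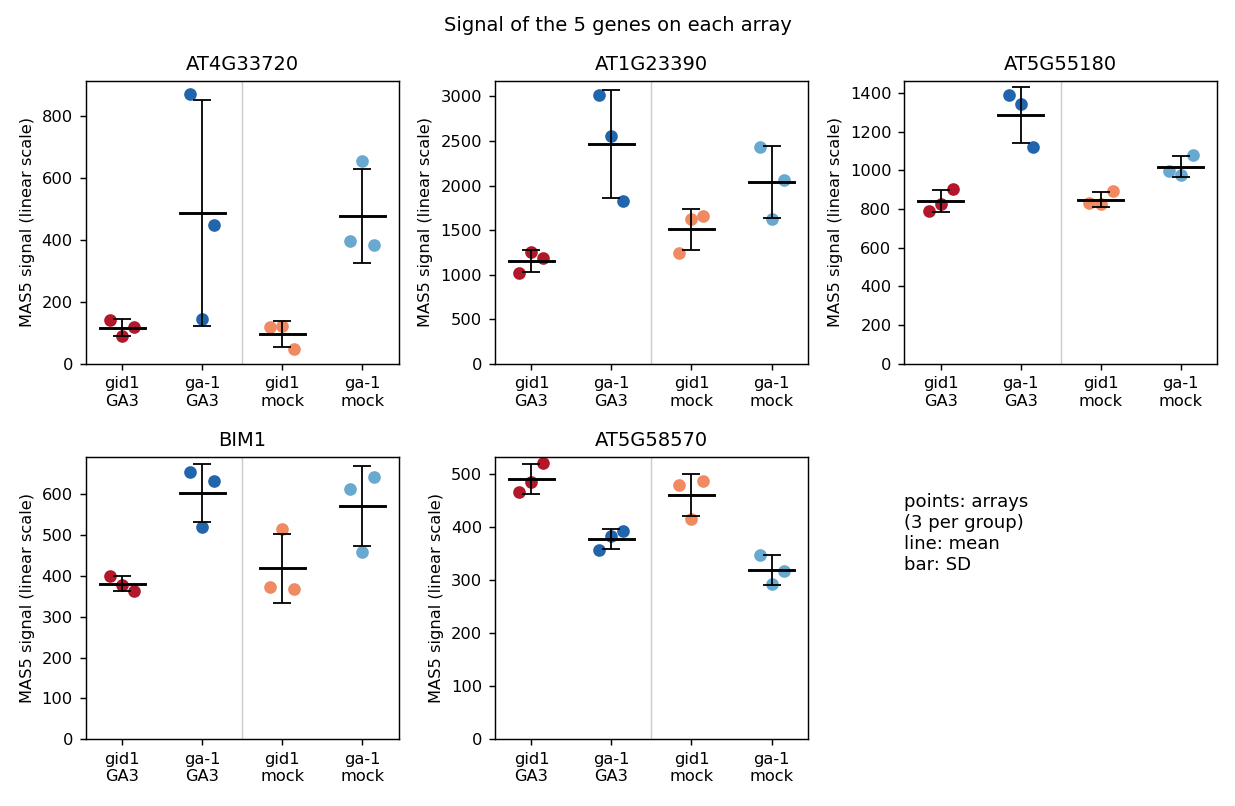
MAS5 signal (linear scale) of each gene on each array, in gid1 with GA3, ga-1 with GA3, gid1 mock and ga-1 mock; points are arrays (3 per group), horizontal lines means and bars SD. AT4G33720 lies between 47.1 and 141.9 on the 6 gid1 arrays and between 145.3 and 870.4 on the 6 ga-1 arrays, and AT5G58570 is the gene that is higher in gid1.

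AT4G33720, the CAP family gene, had the largest difference of the set. With GA3 its signals were 141.9, 89.2 and 119.0 in gid1, against 870.4, 145.3 and 445.9 in ga-1. In mock seedlings they were 117.6, 120.4 and 47.1 in gid1, against 395.7, 652.7 and 382.5 in ga-1. All 6 gid1 arrays were therefore low, and replicate 2 of ga-1 with GA3, the array that correlated least with its group, lay only just above the highest gid1 array. The log2 difference, gid1 minus ga-1, was -1.74 ± 0.48 (SE) with GA3 and -2.40 ± 0.48 (SE) in mock seedlings, or 29.9% and 18.9% of the ga-1 level on the log scale's mean. The gid1 signals, 47.1 to 141.9, lay below the lowest array median (169.70). They carry an unknown background, so the size of the difference and these percentages are uncertain. Single arrays moved the value with GA3: it was -2.44 without replicate 2 and -1.15 without replicate 1 of ga-1 with GA3. This gene also had the widest spread, with a coefficient of variation of 74.8% in ga-1 with GA3 and 43.7% in gid1 mock.

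AT5G55180, the glycoside hydrolase family 17 gene, had a difference that was small in mock seedlings and larger with GA3. Its signals with GA3 were 789.7, 827.6 and 902.4 in gid1, against 1388.3, 1344.3 and 1117.7 in ga-1. In mock seedlings they were 829.5, 824.4 and 891.7 in gid1, against 995.2, 977.2 and 1079.4 in ga-1. The gid1 arrays were low in both treatments, and the groups stayed apart although the highest gid1 array (902.4) and the lowest ga-1 array (977.2) were close. The log2 difference was -0.61 ± 0.12 (SE) with GA3, a level 65.6% of that in ga-1, and -0.26 ± 0.12 (SE) in mock seedlings, a level 83.4% of that in ga-1.

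AT1G23390, the chalcone synthase F-box gene, differed mainly between the GA3-treated groups. With GA3 its signals were 1013.1, 1256.5 and 1182.4 in gid1, against 3018.8, 2557.9 and 1822.3 in ga-1. In mock seedlings they were 1237.9, 1622.2 and 1661.4 in gid1, against 2437.1, 1629.5 and 2064.0 in ga-1. With GA3 every gid1 array was lower than every ga-1 array, while in mock seedlings the highest gid1 array exceeded the lowest ga-1 array. The log2 difference was -1.07 ± 0.18 (SE) with GA3, a 2.11-fold lower level in gid1, and -0.43 ± 0.18 (SE) in mock seedlings, a 1.35-fold lower level.

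BIM1, the brassinosteroid-linked transcription factor gene, had signals of 399.2, 378.3 and 363.2 in gid1 with GA3, against 653.2, 519.8 and 632.1 in ga-1 with GA3. In mock seedlings its signals were 371.9, 515.0 and 367.3 in gid1, against 610.4, 458.9 and 641.3 in ga-1. Replicate 2 of each mock group lay on the other group's side, and without those arrays the mock groups would not touch. The log2 difference was -0.66 ± 0.17 (SE) with GA3 and -0.45 ± 0.17 (SE) in mock seedlings, so that gid1 stood at 63.5% and 73.2% of the ga-1 level.

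AT5G58570 was the gene with the opposite direction. Its signals with GA3 were 466.7, 485.1 and 521.9 in gid1, against 357.2, 384.6 and 392.6 in ga-1. In mock seedlings they were 480.4, 415.4 and 486.9 in gid1, against 348.5, 292.5 and 318.7 in ga-1. Every gid1 array was higher than every ga-1 array. The log2 difference was 0.38 ± 0.13 (SE) with GA3, a 1.30-fold higher level in gid1, and 0.53 ± 0.13 (SE) in mock seedlings, a 1.44-fold higher level.

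The genes were also counted against limma's threshold, as a description of where they stand. A probe set is called here when limma, fitted to all 15922, gives it a Benjamini-Hochberg adjusted p under 0.05. With GA3 limma called 2 of the 5 genes, AT1G23390 and AT5G55180, where 1.26% of all probe sets were called. In mock seedlings it called none of the 5, where 0.0188% of all probe sets were called and 729 had an unadjusted p under 0.05. All 5 were called when the 2 differences were averaged, where 0.553% of all probe sets were called. All 3 differences belong to what chose the genes, so nothing is read from these counts. AT5G55180 no longer passed with GA3 without replicate 1 or 2 of either GA3 group, or in the fit of the GA3 groups alone.

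**Figure D2:**
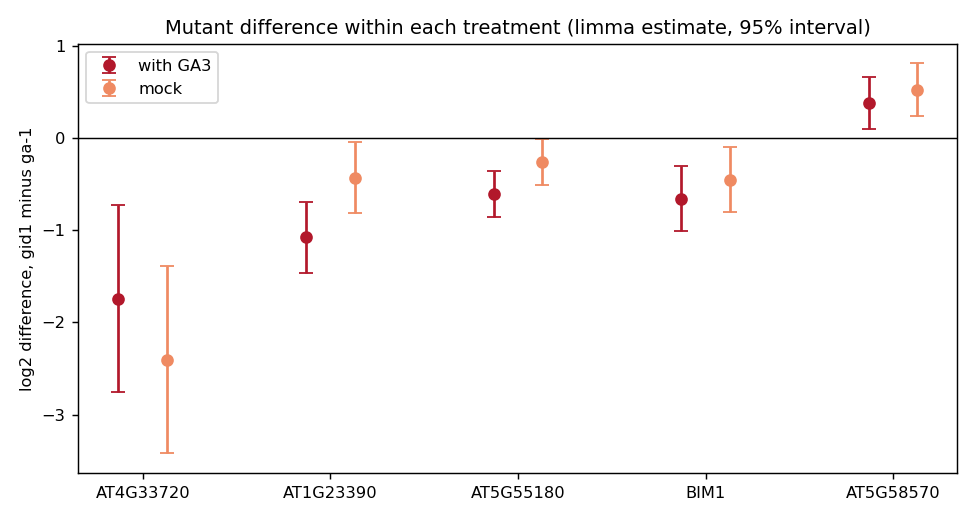
Log2 difference gid1 minus ga-1 for each gene, with GA3 (left of each pair) and mock (right); points are limma estimates and bars 95% intervals for single genes, unadjusted for the number of genes. AT4G33720 is lowest in both treatments (-1.74 and -2.40), AT1G23390 is lower with GA3 (-1.07) than in mock (-0.43), and AT5G58570 is above 0 in both.

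The size of the mutant difference was compared between treatments by subtracting the mock difference from the difference with GA3, which equals the GA3 response of gid1 minus that of ga-1. It was -0.64 for AT1G23390 (95% interval -1.19 to -0.10), -0.35 for AT5G55180 (-0.70 to 0.01) and -0.21 for BIM1 (-0.70 to 0.29), so these 3 were further apart with GA3. It was -0.15 for AT5G58570 (-0.55 to 0.25) and 0.66 for AT4G33720 (-0.78 to 2.1), whose differences were nearer 0 with GA3. For AT4G33720 this value was -0.04 without replicate 2 of ga-1 with GA3. None of the 5 was called, where 0.220% of all probe sets were called. The intervals of AT4G33720, BIM1 and AT5G58570 reach well to both sides of 0, so equal differences in the 2 treatments are not shown either.

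The name of the set says that GA3 did not separate these genes. Absence of a GA3 effect was part of their choice, so the values below are a description. Nothing is read from the counts of 5 genes, and the values do not show that GA3 had no effect on them. In gid1 the arrays with GA3 and the mock arrays overlapped for all 5 genes, with log2 differences, GA3 minus mock, from -0.38 (AT1G23390) to 0.39 (AT4G33720); 9.10% of all probe sets did not overlap there. In ga-1, however, the groups did not overlap for 2 of the 5, against 14.0% of all probe sets. AT5G55180 had 1388.3, 1344.3 and 1117.7 with GA3 against 995.2, 977.2 and 1079.4 in mock, a log2 difference of 0.33 (95% interval 0.08 to 0.58). AT5G58570 had 357.2, 384.6 and 392.6 with GA3 against 348.5, 292.5 and 318.7 in mock, a log2 difference of 0.24 (-0.04 to 0.53). The others had log2 differences of 0.26 (AT1G23390), 0.09 (BIM1) and -0.27 (AT4G33720), and their groups overlapped. Limma called none of the 5 for GA3 in ga-1, where 0.810% of all probe sets were called, and none in gid1, where 0% were called and 838 probe sets had an unadjusted p under 0.05.

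The order of the group means is given as a description too. AT1G23390, AT5G55180 and BIM1 ran from ga-1 with GA3 at the top through ga-1 mock and gid1 mock to gid1 with GA3 at the bottom. For AT1G23390 (2466, 2044, 1507 and 1151) and BIM1 (601.7, 570.2, 418 and 380.2) each group overlapped the next one in this order. For AT5G55180 (1283, 1017, 849 and 840) only the gid1 groups overlapped each other. AT4G33720 ran from ga-1 with GA3 (487) and ga-1 mock (477) to gid1 with GA3 (117) and gid1 mock (95.03), with overlap within each mutant and none between mutants. AT5G58570 ran from gid1 with GA3 (491) and gid1 mock (461), which overlapped, to ga-1 with GA3 (378) and ga-1 mock (320), which did not.

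The variation of each gene over the 12 arrays was divided into parts for mutant, GA3, their interaction and the spread within groups, on the log2 scale. The mutant part was 69.9% of the sum of squares for AT4G33720, 64.7% for AT1G23390, 68.6% for AT5G55180, 70.0% for BIM1 and 76.3% for AT5G58570; the mean over all probe sets tested was 11.1%. The other parts set the 5 genes apart from one another. GA3 took 10.7% for AT5G58570 and 8.97% for AT5G55180 but 0.43% or less for the other 3, with a mean of 9.70% over all probe sets. The interaction took 11.8% for AT1G23390 and 10.9% for AT5G55180, near the mean of 9.63% over all probe sets, and 1.78% to 2.41% for the other 3. The spread within groups was 10.9% and 11.6% for AT5G58570 and AT5G55180, and 23.1% to 28.2% for the other 3, with a mean of 69.5% over all probe sets.

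**Figure D3:**
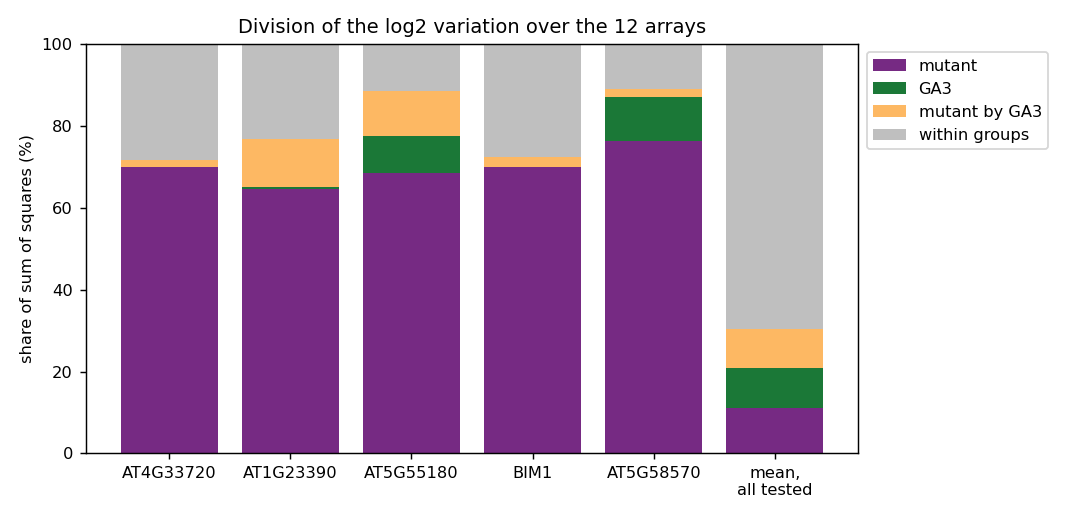
Share of the sum of squares of log2 signal (%) over the 12 arrays taken by mutant, by GA3, by their interaction and by the spread within groups, for the 5 genes and as the mean over all 15922 probe sets tested. The mutant part is 64.7% to 76.3% in the 5 genes, which were chosen for it, and 11.1% in the mean of all.

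A total of 34 probe sets that name 1 gene were called in the averaged mutant difference, these 5 among them. The other 29, of which 23 were higher and 6 lower in gid1, included the receptor genes GID1A and GID1B, SLY1 and XERICO, a RING-type gene that DELLA proteins raise. Their mutant differences had a median size of 1.04 on the log2 scale with GA3 and 0.23 in mock seedlings, and 27 of the 29 were smaller in mock. The exceptions were GID1A (-3.52 in mock, -1.82 with GA3) and GID1B (-3.05 in mock, 0.23 with GA3), which are mutated in gid1. XERICO had 1850 ± 152 signal units in gid1 with GA3 against 436 ± 93.1 in ga-1 with GA3, and 2085 ± 154 in gid1 mock against 1943 ± 56.9 in ga-1 mock (SD, n = 3 each). Among the 5 genes, the difference was smaller in mock for 3, and AT4G33720 and AT5G58570 had the larger difference in mock. Both groups of genes were selected on these arrays, so the contrast between them is a description. Over all probe sets, limma called 201 between gid1 and ga-1 with GA3, of which 89 had 1 name, 66 of them higher and 23 lower in gid1; the 10 with the smallest adjusted p were XERICO, AT5G40540, UGT76E11, TRM28, GID1A, AT5G50915, IQD22, AT5G12050, ATMYC1 and AT4G16447. In mock seedlings it called 3, all lower in gid1, and those with a name were GID1A and GID1B.

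**Figure D4:**
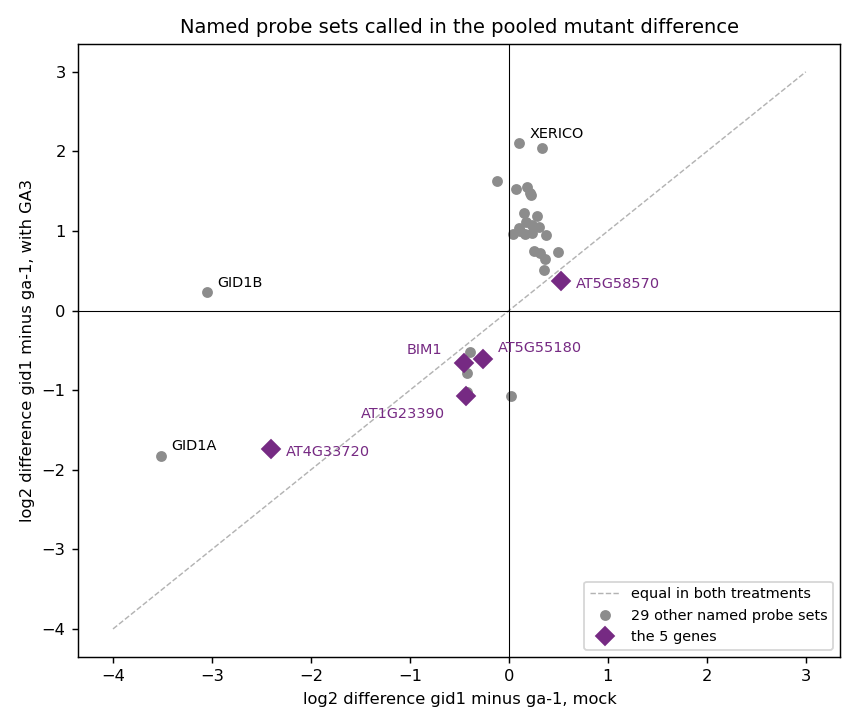
Log2 difference gid1 minus ga-1 in mock seedlings (horizontal axis) and with GA3 (vertical axis) for the 34 singly named probe sets called in the averaged mutant difference; diamonds are the 5 genes, circles the other 29, and the dashed line marks equal differences. AT4G33720 and AT5G58570 lie further from 0 in mock than with GA3, while 27 of the 29 others, XERICO among them, have the smaller difference in mock.

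Genes with the most similar course over the 12 arrays were sought among all other tested probe sets with 1 name, by Pearson's r of log2 signal; the arrays share 4 groups, so r mainly follows the group means. AT5G47400 (r = 0.935), AT5G43190 (0.897) and IAA29 (0.881), an Aux/IAA repressor gene of auxin signalling, were most like AT1G23390. IAA29 had 167 ± 17.95 signal units in gid1 with GA3 against 315 ± 75.1 in ga-1 with GA3, and 182 ± 55.0 in gid1 mock against 214 ± 21.1 in ga-1 mock (SD, n = 3 each). AT1G51830 (0.922), AT1G11380 (0.921) and AT3G07010 (0.904) were most like AT5G55180. AT1G35780 (0.885), CCS (0.859), the copper chaperone gene of superoxide dismutase, and AT2G23200 (0.849) were most like BIM1. AT1G59740 (0.894), AT3G26470 (0.877) and AT4G14420 (0.868) were most like AT4G33720, and AT5G58160 (0.899), AT2G28390 (0.873) and AT4G10050 (0.865) most like AT5G58570. AT1G59740 was among the 29 other called probe sets, with log2 differences of -0.52 with GA3 and -0.39 in mock.

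The 5 genes also resembled each other over the 12 arrays, as their choice makes likely. Across all arrays, r was 0.58 to 0.87 between the 4 genes that were lower in gid1 and -0.83 to -0.56 between each of them and AT5G58570. Once each group's mean was removed, leaving 8 degrees of freedom, AT1G23390 and AT5G55180 still had r = 0.70, the highest of the 10 pairs. The other 9 pairs lay between -0.50 (AT4G33720 and AT5G58570) and 0.35 (AT4G33720 and BIM1). These values are descriptions over arrays that share mutants, treatments and scaling.

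Relatives of the members were taken from lists by family or pathway, which were written with earlier results of these data known. Limma's test is given for them with that limit. Of 20 listed CAP family genes, 17 had a probe set naming them alone and 7 were tested; limma called none between gid1 and ga-1, with GA3, in mock or averaged, and none of the 7 had an unadjusted p under 0.05. All 7 had a negative averaged log2 difference, between -0.36 and -0.06, with a median of -0.16, beside -0.01 over all probe sets. Some were dim with an SE above the size of the value. AT4G30320 had group means of 41.3 to 57.1 signal units and -0.36 ± 0.40 (SE). AT1G50060 had group means of 51.6 to 83.1 and -0.16 ± 0.54 (SE). The shared sign is therefore a description. It was not the same in both treatments for all 7. AT4G25780 had -0.62 in mock and 0.17 with GA3, AT1G50060 -0.80 and 0.48, and AT4G25790 0.17 and -0.36. The others were negative in both treatments. The 2 with the smallest p were AT2G19970 (-0.22 ± 0.14 SE, adjusted p = 0.68) and PR-1-LIKE (-0.16 ± 0.17 SE, adjusted p = 0.83). AT4G33720 stood at -2.07 on the same scale, but it was chosen on this difference and its relatives were not.

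Of 47 listed glycoside hydrolase 17 genes, 37 were named and 24 tested. Limma called none of the 24 in any of these comparisons. At an unadjusted p under 0.05 there were 5 with GA3, 0 in mock and 3 in the averaged difference. Over all 15922 probe sets these numbers were 1723, 729 and 1474, so nothing is read from the counts. Their median averaged log2 difference was -0.06, with a range of -0.45 to 0.75. AT3G04010 had 92.7 ± 28.03 signal units in gid1 with GA3 against 145 ± 28.8 in ga-1 with GA3 (SD, n = 3 each), and an averaged log2 difference of -0.45 ± 0.19 (SE, adjusted p = 0.46). AT5G55180, chosen on this difference, stood at -0.43 ± 0.08 (SE) on the same scale. AT3G07320 had an averaged difference of -0.30 (adjusted p = 0.47).

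The flavonoid pathway, in which the AT1G23390 protein acts, was measured in only 4 of 20 listed genes, and the chalcone synthase gene itself was not analysed here. Limma called none of the 4 in any of these comparisons. Of them 1, CHIL, had an unadjusted p under 0.05 with GA3, as had 1723 of all 15922 probe sets. CHIL, a chalcone isomerase-like gene, had 948 ± 174 signal units in gid1 with GA3 against 711 ± 114 in ga-1 with GA3, and 702 ± 144 in gid1 mock against 652 ± 52.6 in ga-1 mock (SD, n = 3 each), an averaged log2 difference of 0.25 (adjusted p = 0.57). UGT78D2, a flavonoid glycosyltransferase gene, had 0.13 (adjusted p = 0.73). The 4 genes had a median of 0.11, beside -0.01 over all probe sets, where the median size regardless of sign was 0.11. AT1G23390, chosen on this difference, stood at -0.75 on the same scale.

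Around BIM1, none of 16 listed brassinosteroid signalling genes and none of 11 synthesis and breakdown genes could be tested. Of 7 brassinosteroid-responsive genes 1 was tested, the expansin gene EXPA8, with an averaged log2 difference of -0.26 (adjusted p = 0.83). None of 7 phenylpropanoid entry enzymes, 4 kelch F-box genes acting on their first enzyme or 10 salicylate and defence genes was tested. The GA list had 6 of 19 genes tested, of which limma called GID1A and GID1B as lower in gid1 in mock, and with GA3 GID1A as lower and SLY1 as higher (907 ± 135 in gid1 against 418 ± 69.9 in ga-1, SD, n = 3 each, adjusted p = 0.0034).

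Genes lying beside the members were examined in the same way, since position was no part of the choice. Of the 5 annotated genes on each side of each member, 50 in all in the TAIR10.1 order, 20 were named by a probe set alone and 16 were tested with 17 probe sets. Limma called none of the 17 between gid1 and ga-1 with GA3, in mock or averaged, and 1 in each had an unadjusted p under 0.05. Over all 15922 probe sets, 1723, 729 and 1474 had such a p. Their averaged log2 differences ran from -0.69 to 0.23, with a median size of 0.13 beside 0.11 over all probe sets. The 2 with the smallest p were AT5G08090, 4 genes from BIM1, with -0.69 ± 0.31 (SE, adjusted p = 0.52), and AT1G23410, 2 genes from AT1G23390, with -0.21 ± 0.11 (SE, adjusted p = 0.58). AT5G08090 was dim, with 44.2 ± 12.5 signal units in gid1 with GA3 against 85.6 ± 57.7 in ga-1 with GA3 (SD, n = 3 each). The genes directly beside AT4G33720, which are CAP family genes themselves, were not tested.

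**Figure D5:**
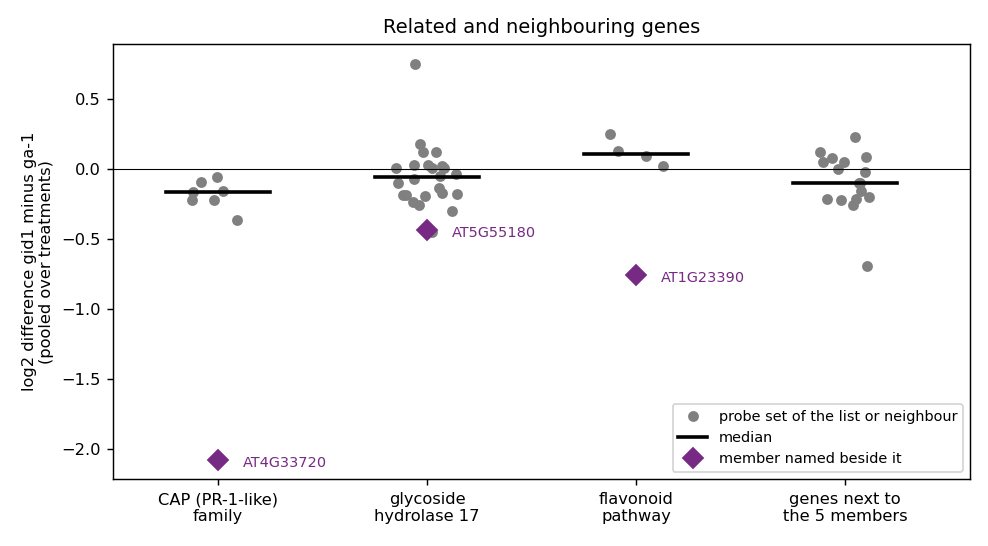
Averaged log2 difference gid1 minus ga-1 of each tested probe set (circles) in the CAP family (7), the glycoside hydrolase 17 family (24), the flavonoid pathway (4) and among the genes near the 5 members (17), with the median as a bar and the related member as a diamond. AT4G33720 (-2.07) and AT1G23390 (-0.75) lie below every gene of their columns, and AT5G55180 (-0.43) lies beside AT3G04010. The members were chosen on this difference and the circles were not, so a member's place in its column is a description.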

How the data were processed

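The authors deposited intensities, which the submitters' processing notes name as MAS5 signals without a version; the values are on a linear scale. The deposited arrays share 1 level: without the lowest and highest 2% of values, each has a mean of 500.0. Groups and replicate numbers come from the sample titles; a description field naming GA3 for mock samples too was not followed. Signals were floored at 1 and taken to log2, the 64 controls were dropped, and of the other 22746 probe sets the 15922 whose mean log2 signal reached the 30th percentile (5.55) were tested. The fit used limma 3.58.1 under R 4.3.3, with 1 mean for each of the 4 groups over 12 arrays (eBayes with an intensity trend, Benjamini-Hochberg adjustment, threshold 0.05). No scanner files or detection calls entered the work. The 3 arrays per group limit the precision.

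The members, lists and tests were chosen with earlier results of these data known. Of 13513 probe sets with 1 symbol, 13436 matched the TAIR10.1 gene table by gene ID, and 503 probe sets had several symbols. Named besides the members are the targeted genes, the 3 most similar genes per member, up to 4 called genes per list or the 2 with the smallest p, likewise for neighbours, and 10 called genes per mutant comparison; XERICO's values and AT1G59740's are given as examples chosen after their values were seen, as is the highest and lowest gene of a range. Promoter motifs had been planned and were not analysed here. On simulated arrays with 200 changed probe sets among 15922, the mutant comparison with GA3 recovered 71 of 100 changed by 1 and 91 of 100 changed by 2 on the log2 scale, and the mock comparison 70 and 96. The simulated noise was normal, and so many changed probe sets ease the adjusted threshold. The real mock comparison called only 3, and AT4G33720 at -2.40 was not among them, so this recovery need not hold there. Same-numbered arrays of different groups did not deviate together (r of deviations -0.12 to 0.11, over 0.1 in 2 of 18 pairs), so the replicate number was not used as a block.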

Additional observations from a re-analysis of the deposited data

Results flagged for a closer look

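The response to GA3 differed between the mutants, by limma's test of the difference, for 10 of the non-member genes named above; values are the log2 response of gid1 minus that of ga-1. The receptor genes GID1A and GID1B had 1.70 (adjusted p = 0.029) and 3.28 (adjusted p = 0.00012). Both are mutated in gid1, so any change of their signal in ga-1 tends to appear as such a difference. Their log2 responses to GA3 were 0.02 and 0.60 in gid1, against -1.68 and -2.68 in ga-1. The seed-marker gene AT3G02480 had 4.77 (adjusted p = 0.018). AT3G02480 comes from the list of seed markers already known to be high in some arrays. XERICO had 2.01 (adjusted p = 0.00012), AT5G40540 had 1.45 (adjusted p = 0.00088) and IQD22 had 1.75 (adjusted p = 0.030). AT4G16447 had 2.42 (adjusted p = 0.034), TRM28 had 1.72 (adjusted p = 0.047) and UGT76E11 had 1.23 (adjusted p = 0.047). AT5G12050 alone of the 10 had a negative value, -1.59 (adjusted p = 0.0032).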

How the results depend on the processing

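Over 310 recomputed mutant differences of the 5 genes (with GA3, in mock and averaged, under every alternative and with each array left out), none changed sign and none moved by more than 1 SD between replicates. Passing limma's threshold in the averaged difference is no evidence for genes chosen on it, and it varied with the setting: of 20 alternatives, 19 kept it for AT4G33720 and AT1G23390, 10 for AT5G55180, 6 for BIM1 and 5 for AT5G58570. Counts over all probe sets moved more. Between gid1 and ga-1 with GA3, 201 became 110 without limma's intensity trend, 120 in a fit of the GA3 groups alone, 109 with a 2-fold limit and 99 at an adjusted p under 0.01. The averaged difference gave 88, against 28, 21 and 27 without the trend, with the 2-fold limit and at 0.01. The difference of responses gave 35, against 12 without the trend and 15 at 0.01. The mock comparison gave 3, and 0 with the stricter filter, which removed them. With each array left out the counts were 125 to 290 with GA3, 41 to 97 averaged, 17 to 65 for the difference of responses and 2 to 5 in mock; no neighbouring gene was called (0 to 0). With the replicate number as a block, which the pairing check did not support, they were 178, 62, 30 and 2. Apart from the constructed limits, the cause was not tested. Without detection calls, dim signals such as AT4G33720 in gid1 carry an unknown background.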
